A study of Mus musculus with 6 samples.

Results

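The myosin light chains and their kinases were followed in the tibialis anterior (TA) muscle of aged mice given the compound BML-260. The set was taken by symbol from a fixed list of 10 genes and not by a filter on measured values, although earlier results of these data were known. It holds the regulatory chains Mylpf and Myl2, the essential chains Myl1, Myl3, Myl4, Myl6 and Myl6b, and the kinases Mylk2, Mylk4 and Mylk. All 10 were found among the 16800 genes with a deposited TPM value (a transcript level scaled for length and for library size), and all 10 passed the filter on low counts that left 16188 genes for testing. Every mouse was a male C57BL/6J animal, given in the labels as 24 months old. The control group received vehicle (DMSO with Tween) and the treated group received BML-260 at 5 mg/kg, both by intraperitoneal injection for 1 month, with 3 mice and 1 total RNA library per mouse in each group. BML-260 is a small molecule used to inhibit the phosphatase DUSP22. All mice were aged, so the values compare drug with vehicle at one age and in one muscle.

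Each myosin heavy chain carries 1 essential and 1 regulatory light chain around its lever arm, and muscle fibers of different types use different light chain genes. Mylpf and Myl1 encode the chains of fast skeletal fibers, whereas Myl2 and Myl3 encode those of slow fibers and of the cardiac ventricle. Myl4 is the atrial and embryonic essential chain, Myl6 serves smooth muscle and non-muscle cells, and Myl6b is a slow and non-muscle essential chain. Calcium-bound calmodulin activates myosin light chain kinase, which phosphorylates the regulatory chain and thereby modulates force, and myosin phosphatase removes the mark. Mylk2 is the skeletal muscle kinase, Mylk is the smooth muscle and non-muscle kinase, and Mylk4 is a less characterised member of the family. The TA of the mouse is composed almost entirely of fast fibers.

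The regulatory chains are the substrates of the kinases, so the start of both coding sequences is shown from the ATG onwards (75 bases each, GENCODE annotation, build GRCm38, plus strand), with the codon of the phosphorylated serine in capitals.
Mylpf: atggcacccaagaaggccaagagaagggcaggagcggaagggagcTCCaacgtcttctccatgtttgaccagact
Myl2: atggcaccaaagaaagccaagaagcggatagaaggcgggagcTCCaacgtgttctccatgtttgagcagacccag
The capitals are codon 16 of Mylpf, in exon 2 at chr7:127212903-127212905, and codon 15 of Myl2, in exon 2 at chr5:122101788-122101790, both counted from the initiator methionine. The serine codon was TCC in both genes, and the bases after it run in parallel in the fast and the slow chain. Across the whole coding sequence the pair shared 71.7% of aligned bases, and the longest identical stretch was 20 bases. Among the 10 pairs of essential chains the closest was Myl6 and Myl6b, with 81.1% identity and a longest identical stretch of 46 bases. These 2 genes lie on the same strand of chromosome 10 with 11 bases between them, so short reads from their shared stretch may be divided between them. How reads with several matches were counted is not given in the sources used here, and the Myl6b values are uncertain to that extent. On the opposite strand Myl2 overlaps Ccdc63 (at most 4 counts in any library) and Myl3 overlaps Pth1r (33 to 65 counts), and Myl4, Mylk4 and Mylk overlap noncoding genes or pseudogenes. The kit keeps strand, but whether the counting used it is not given in the sources used here.

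Sequencing depth ranged from 39522890 to 56998875 counts per library, and both of these extremes were in the BML-260 group. Vehicle replicate 3 stood apart from the other 5 libraries. Its correlation of log2 CPM with any other library, across genes, was between 0.940 and 0.948, whereas all other pairs were between 0.972 and 0.985, and genes are not independent replicates. The 10 genes together took 1.98% of all TPM in vehicle replicate 3 and between 2.93% and 3.61% in the others. Values without this library are given beside those for all 6.

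No light chain or kinase gene passed either threshold when all 6 libraries were compared. At an adjusted p under 0.05 (quasi-likelihood F-test of edgeR, adjusted by Benjamini-Hochberg over all tested genes), 0 of the 10 and 0 of all 16188 genes were called (0% of genes tested), while 966 genes had an unadjusted p under 0.05 and DESeq2 called 95. The wider rule, a change of 1.3-fold or more together with p under 0.05 before adjustment, also called 0 of the 10, beside 5.75% of all genes (0.896% higher and 4.86% lower with BML-260). Of the 10 genes 6 had a fold change above 0 and 4 below, with a median of 0.26 on the log2 scale against -0.0039 over all genes tested. Without vehicle replicate 3 the median of the 10 was 0.07, and 2 of them (Myl2 and Mylk2) met the wider rule, both higher with BML-260, beside 3.98% of genes tested in either direction and 1.06% in that direction. The levels within the vehicle group spread far more than the group means differed for several of the genes, and the gene by gene values follow.

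**Figure D1:**
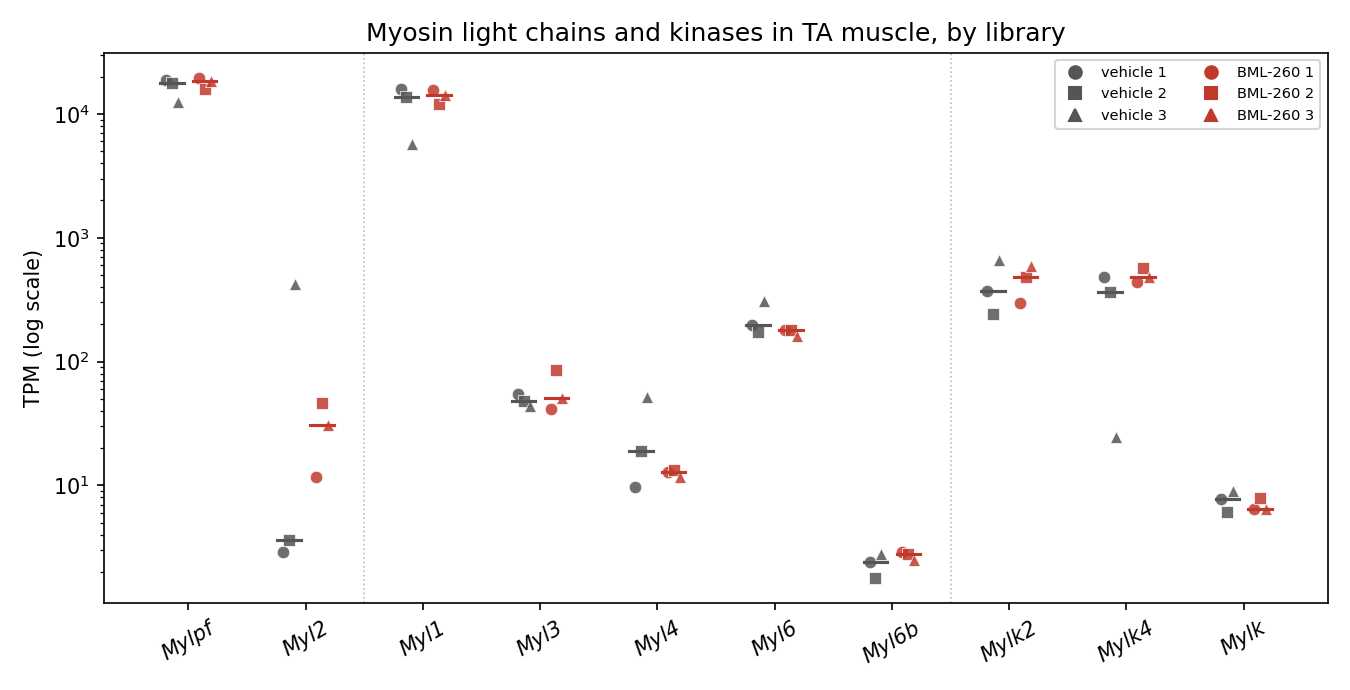
TPM of the 10 genes on a log10 axis in each of the 3 vehicle and 3 BML-260 libraries, 1 point per library with a bar at the group median. Vehicle replicate 3 lies far above the other libraries for Myl2 (423 TPM) and far below them for Mylk4 (24.7 TPM), while Mylpf and Myl1 are the most abundant genes of the set in every library.

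Mylpf, the fast regulatory chain (chr7:127208890-127214298, plus strand), was the most abundant of the 10 genes. Its level was 18895, 17795 and 12509 TPM in vehicle replicates 1, 2 and 3 and 19482, 15751 and 18595 TPM in the BML-260 replicates. The lowest library was vehicle replicate 3, and the groups overlapped. Mylpf stood at place 9 among all genes by mean TPM in vehicle and at place 10 with BML-260. Its log2 fold change was 0.23 (SE 0.35, adjusted p = 0.867 by edgeR), and it was -0.04 (SE 0.18) without vehicle replicate 3.

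Myl2, the slow regulatory chain (chr5:122100951-122113472, plus strand), varied more than any other gene of the set. Its level was 2.89, 3.59 and 423 TPM in vehicle replicates 1, 2 and 3 and 11.6, 46.7 and 31.0 TPM with BML-260, resting on 61, 56 and 7744 counts and on 277, 866 and 470 counts. Vehicle replicate 3 was thus the highest library and the other vehicle libraries were the lowest, with all BML-260 libraries between them. Over all 6 libraries its log2 fold change was -1.82 (SE 1.45, adjusted p = 0.796 by edgeR). Without vehicle replicate 3 the direction turned, to a log2 fold change of 3.11 (SE 0.47, unadjusted p = 3.8e-05, adjusted p = 0.0576 by edgeR), and the mean TPM of the BML-260 group was 9.18-fold that of vehicle replicates 1 and 2. Over the 15 alternative fits the adjusted p of Myl2 ranged from 0.0576 to 0.984. The BML-260 libraries themselves differed 4.02-fold from lowest to highest, against at most 2.04-fold for the other 9 genes. In bulk muscle, a smaller number of fibers of one type and less RNA per fiber cannot be told apart.

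Myl1, the fast essential chain (chr1:66924295-66945404, minus strand), reached 15911, 13801 and 5757 TPM in the vehicle libraries and 15624, 12126 and 14095 TPM with BML-260. Vehicle replicate 3 was again the lowest, at 2.58-fold below the mean of the other vehicle libraries, and the remaining 5 libraries overlapped. Its log2 fold change was 0.30 (SE 0.47, adjusted p = 0.872 by edgeR) and turned to -0.10 (SE 0.19) without that library. The long and short fast chains that Myl1 encodes from separate start sites cannot be told apart in these values, which are per gene.

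Myl3, the slow and ventricular essential chain (chr9:110741861-110769798, plus strand), did not share the spread of Myl2. It was at 54.5, 48.2 and 44.0 TPM in vehicle replicates 1, 2 and 3 and at 41.7, 84.9 and 51.2 TPM with BML-260. The highest library was BML-260 replicate 2, and on TPM vehicle replicate 3 was close to the rest of its group. On normalized counts (counts divided by DESeq2 size factors) vehicle replicate 3 was the lowest library, at 818. The other vehicle libraries were at 1401 and 1301, and the BML-260 libraries at 1178, 2126 and 1284. The log2 fold change was 0.38 (SE 0.28, adjusted p = 0.788 by edgeR), and 0.17 (SE 0.22) without vehicle replicate 3. The ratio of Myl2 to Myl3, chosen after the values were seen, was 0.0531, 0.0745 and 9.62 in the vehicle libraries and 0.279, 0.550 and 0.606 with BML-260. The slow regulatory and slow essential transcripts were therefore present in very unequal proportions from library to library.

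Myl4, the atrial and embryonic essential chain (chr11:104550663-104595753, plus strand), was at 9.75, 19.1 and 51.5 TPM in vehicle and at 12.9, 13.4 and 11.8 TPM with BML-260. The BML-260 libraries were close together and lay within the range of the vehicle libraries, of which replicate 3 was the highest. The log2 fold change was -0.73 (SE 0.37, unadjusted p = 0.0852, adjusted p = 0.788 by edgeR). Without vehicle replicate 3 it was -0.17 (SE 0.23), and without vehicle replicate 1 it was -1.06 (unadjusted p = 0.00345 by edgeR), which met the wider rule. That rule called 1388 genes lower and 835 higher of 16719 tested in the fit without vehicle replicate 1. The adjusted p of Myl4 ranged from 0.252 to 1.0 over its alternatives.

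Myl6, the smooth muscle and non-muscle essential chain (chr10:128490860-128494145, minus strand), was at 198, 174 and 308 TPM in vehicle and at 179, 181 and 161 TPM with BML-260. On TPM only vehicle replicate 3 exceeded the others clearly. On normalized counts the excess was smaller, at 4421 against 3926 and 3629 in the other vehicle libraries and 3918, 3523 and 3136 with BML-260. The log2 fold change was -0.18 (SE 0.15, adjusted p = 0.796 by edgeR), or -0.11 (SE 0.14) without vehicle replicate 3. Myl6b (chr10:128494157-128498685, minus strand) was the least abundant gene of the set, at 2.39, 1.78 and 2.80 TPM in vehicle and 2.89, 2.79 and 2.49 TPM with BML-260. On normalized counts (counts divided by DESeq2 size factors) Myl6b was at 69.6, 54.6 and 59.1 in vehicle and at 92.5, 79.0 and 70.9 with BML-260, which made it the 1 gene of the 10 whose groups did not overlap, beside 12.1% of all genes tested in either direction and 5.43% higher with BML-260. Its log2 fold change was 0.40 (SE 0.27, adjusted p = 0.788 by edgeR), or 0.37 (SE 0.29) without vehicle replicate 3, and its groups did overlap on the TPM scale.

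Mylk2, the skeletal muscle kinase (chr2:152911352-152923068, plus strand), was at 368, 242 and 659 TPM in vehicle and at 297, 482 and 591 TPM with BML-260. On TPM the groups covered nearly the same range, with the lowest and the highest library both in vehicle. On normalized counts vehicle was at 29628, 20117 and 38176 and BML-260 at 26231, 38063 and 45664. There the highest library was BML-260 replicate 3. Between the groups the log2 fold change was 0.32 (SE 0.29, adjusted p = 0.802 by edgeR). Without vehicle replicate 3, the library with the highest TPM, it was 0.55 (SE 0.24, unadjusted p = 0.043, adjusted p = 1.0 by edgeR), with adjusted p from 0.676 to 1.0 over its alternatives.

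Mylk4 (chr13:32700834-32783954, minus strand) was as abundant as Mylk2 in 5 of the libraries and nearly lost in the other. Its level was 485, 363 and 24.7 TPM in vehicle replicates 1, 2 and 3 and 438, 568 and 478 TPM with BML-260, from 93701, 54433 and 4410 counts and from 102831, 101471 and 69241 counts. Vehicle replicate 3 was thus 17.2-fold below the mean of the other vehicle libraries, whereas those and the BML-260 libraries overlapped. Of 15627 tested genes with TPM values, 4 had a log2 ratio of vehicle replicate 3 to the other vehicle libraries at or below that of Mylk4 (-4.10), Mylk4 included, and none but Myl2 was at or above that of Myl2 (6.99), around a median of 0.48. The log2 fold change of Mylk4 between the groups was 0.76 (SE 0.85, adjusted p = 0.830 by edgeR), and 0.20 (SE 0.17) without vehicle replicate 3. Mylk, the smooth muscle and non-muscle kinase (chr16:34745210-35002420, plus strand), was nearly level across all libraries. It was at 7.70, 6.09 and 9.08 TPM in vehicle and at 6.49, 7.86 and 6.40 TPM with BML-260, with a log2 fold change of -0.07 (SE 0.15, adjusted p = 0.898 by edgeR), or -0.02 (SE 0.15) without vehicle replicate 3.

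**Figure D2:**
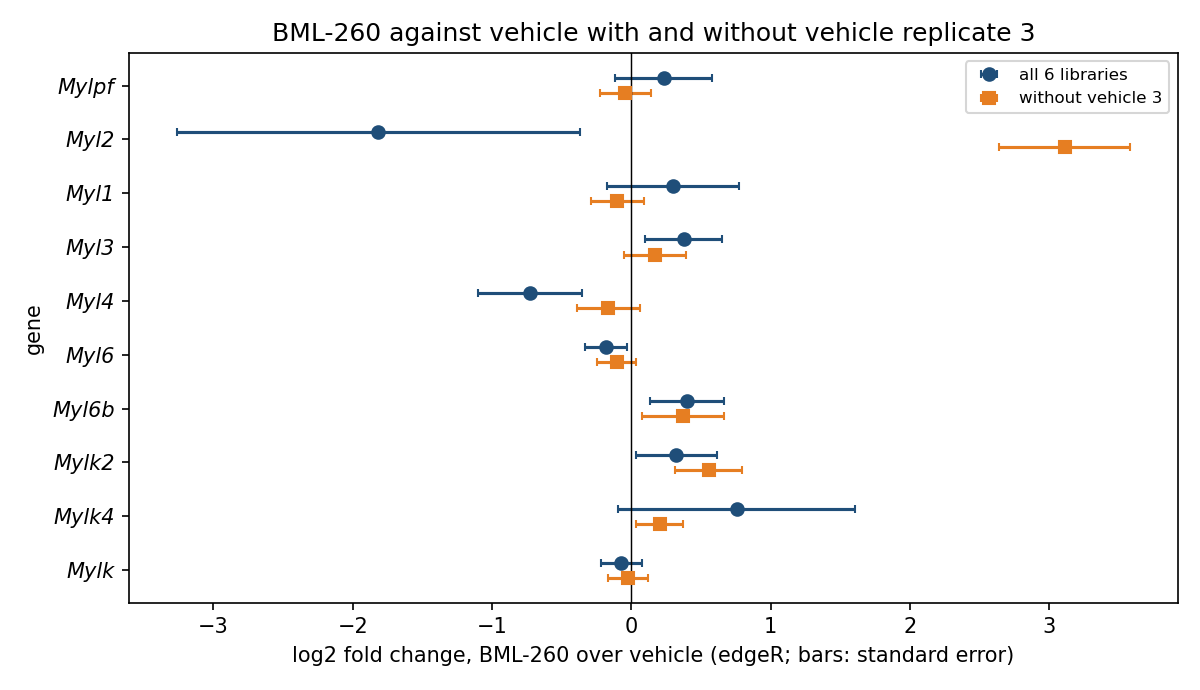
Log2 fold change of BML-260 over vehicle with its standard error for the 10 genes, from edgeR fits with all 6 libraries and without vehicle replicate 3. Myl2 goes from -1.82 to 3.11 when that library is left out, and Myl1 and Mylpf move across 0 to -0.10 and -0.04.

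Over all 6 libraries Mylpf exceeded Myl1 in 6 of 6, and both exceeded every other gene of the set. In the middle of the order by mean TPM, Mylk2 exceeded Mylk4 in 2 of 6 libraries. Myl2 had a higher mean than Myl3 but exceeded it in only 1 of 6 libraries, vehicle replicate 3. At the low end Myl4 exceeded Mylk, and Mylk exceeded Myl6b, in 6 of 6 libraries. The range over the 6 libraries was 146-fold for Myl2, 23.0-fold for Mylk4 and 5.28-fold for Myl4.

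The proportions within each class of chain were compared per library, since they do not depend on the scaling of the library. Myl2 made up 0.0153%, 0.0202% and 3.27% of regulatory chain transcripts (Myl2 with Mylpf, TPM) in vehicle and 0.0596%, 0.295% and 0.166% with BML-260. Mylpf thus provided nearly all of the summed Mylpf and Myl2 transcripts in every library. Regulatory chains outside the set are not in this sum. Of these, Myl12a was at 160 to 919 TPM and exceeded Myl2 in every library. The group means of the Myl2 share were 1.10% ± 1.88 and 0.174% ± 0.118 (SD, n = 3), and they did not differ beyond the spread (2-sided exact permutation test, p = 1.0, where 3 against 3 cannot go below 0.1). Leaving out vehicle replicate 3, the BML-260 mean was 0.156 percentage points higher (exact permutation p = 0.2, the smallest that 2 against 3 libraries can give).

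Myl3 and Myl6b together formed 0.351%, 0.356% and 0.760% of essential chain transcripts in vehicle and 0.281%, 0.707% and 0.375% with BML-260. The means were 0.489% ± 0.234 and 0.454% ± 0.224 (SD, n = 3, exact permutation p = 0.7). Leaving out vehicle replicate 3, the vehicle mean was 0.354% and the direction turned, with BML-260 higher by 0.1003 percentage points (exact permutation p = 0.8). Myl1 formed between 97.7% and 98.5% of essential chain transcripts in 5 libraries and 93.4% in vehicle replicate 3, where Myl6 took 5.00% and Myl4 took 0.835%. The ratio of essential to regulatory chain transcripts was 0.856, 0.789 and 0.477 in vehicle and 0.814, 0.785 and 0.769 with BML-260, with means of 0.707 ± 0.202 and 0.789 ± 0.0226 (SD, n = 3, exact permutation p = 0.9). With that library left out the vehicle mean was 0.823 and the difference turned from 0.0821 to -0.0332 (exact permutation p = 0.4). The listed essential chains were below Mylpf with Myl2 in all 6 libraries, and most so in vehicle replicate 3. The sides of this ratio are not matched. It counts Myl6 and Myl6b but leaves out Myl9, Myl12a and Myl12b, of which Myl12a was at 919 TPM in vehicle replicate 3.

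Mylk2 made up 42.8%, 39.7% and 95.1% of the kinase transcripts in vehicle and 39.99%, 45.5% and 54.9% with BML-260. The means were 59.2% ± 31.2 and 46.8% ± 7.54 (SD, n = 3, exact permutation p = 0.9). In the other vehicle libraries the mean was 41.2% and the difference turned from -12.4 to 5.60 percentage points (exact permutation p = 0.4). Mylk4 contributed 56.3%, 59.3% and 3.56% in vehicle and 59.1%, 53.7% and 44.5% with BML-260, and Mylk at most 1.31% in any library. In 5 libraries the skeletal kinase and Mylk4 therefore shared the kinase transcripts about evenly, and in vehicle replicate 3 nearly all were from Mylk2.

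**Figure D3:**
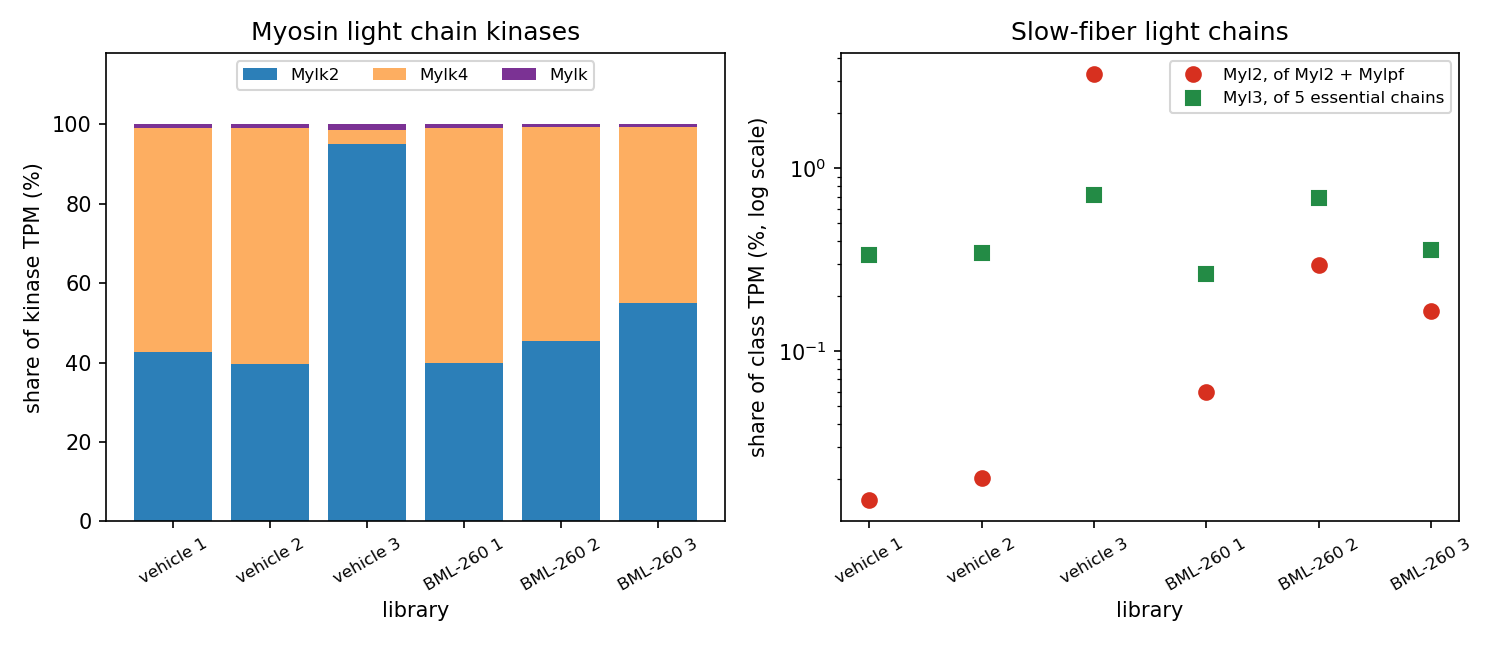
Shares of the 3 kinases (left, stacked bars) and of Myl2 in regulatory and Myl3 in essential chains (right, log10 axis) per library, in percent of summed TPM, for vehicle replicates 1 to 3 and BML-260 replicates 1 to 3. Vehicle replicate 3 has the highest share of Myl2 in Mylpf plus Myl2, the regulatory chains of the set (3.27%), and the highest Mylk2 share of kinases (95.1%).

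The wider family of light chains added little. Of 6 further genes (Myl7, Myl9, Myl10, Myl12a, Myl12b and the cardiac kinase Mylk3), 4 could be tested, 1 was higher and 3 were lower with BML-260, and 0 were called. When vehicle replicate 3 was left out, the tally turned to 3 higher and 1 lower, with a median of 0.05 against -0.16 on the log2 scale, and again 0 were called. Myl12a, a non-muscle regulatory chain, had a log2 fold change of -0.70 (SE 0.34, unadjusted p = 0.071 by edgeR) and stood at 919 TPM in vehicle replicate 3 against 160 to 314 TPM elsewhere, and without that library its log2 fold change was -0.25 (SE 0.22). Myl12b and Myl9, the next by p, had log2 fold changes of -0.12 (SE 0.16) and 0.07 (SE 0.13), or 0.04 and 0.06 without vehicle replicate 3. The atrial chain Myl7 had 0 counts in all 6 libraries, which allows up to 3 counts in each, and Mylk3 had at most 19 counts.

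Of 16 genes that act on light chain phosphorylation (calmodulins, subunits and inhibitors of myosin phosphatase, RhoA and its kinases), 11 had a fold change above 0 and 5 below, with a median of 0.07 on the log2 scale, and 1 was called by the wider rule, a share near the 5.75% of all genes. In the fit without vehicle replicate 3, 10 were above 0 and 6 below (median 0.09) and 0 were called. The gene called was Ppp1r12a, the targeting subunit of myosin phosphatase, which fell by 0.62 on the log2 scale (SE 0.23, unadjusted p = 0.028, adjusted p = 0.788 by edgeR). It was at 13.2, 18.6 and 36.0 TPM in vehicle and at 10.9, 12.9 and 14.5 TPM with BML-260, and without vehicle replicate 3 its log2 fold change was -0.37 (SE 0.18). The calmodulin gene Calm3 came next by p, with a log2 fold change of 0.61 (SE 0.29), or 0.37 (SE 0.21) without vehicle replicate 3, past no threshold in either fit.

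Of 9 heavy chain genes 2 were higher and 7 lower (median -0.18 on the log2 scale). By the wider rule 1 was called, beside 5.75% of all genes tested. The tally without vehicle replicate 3 was the reverse, 7 higher and 2 lower (median 0.07). In that fit 1 was called higher (Myh7) and 1 lower (Myh3), beside 1.06% and 2.92% of all genes tested. Myh3, the embryonic heavy chain, fell by 1.66 on the log2 scale (SE 0.43, adjusted p = 0.631 by edgeR), from 3.94, 7.63 and 17.1 TPM in vehicle to 3.04, 1.47 and 2.97 TPM with BML-260. Its log2 fold change without vehicle replicate 3 was -1.22 (SE 0.34), still past the wider rule. Myh10, a non-muscle heavy chain, and Myh4, that of the fastest fibers, came next by p with log2 fold changes of -0.39 (SE 0.30) and 0.48 (SE 0.38), or 0.07 and 0.24 without vehicle replicate 3, with no threshold passed. Myh7, the slow heavy chain that pairs with Myl2, was at 0.278, 0.355 and 25.4 TPM in vehicle and at 1.96, 3.42 and 2.38 TPM with BML-260. Its order over the libraries was thus like that of Myl2, with 1 vehicle library above and the other vehicle libraries below every BML-260 library. For Myh7 the log2 fold change was -1.28 (SE 1.26, adjusted p = 0.811 by edgeR) over all libraries and 2.92 (SE 0.26, adjusted p = 0.0023 by edgeR) without vehicle replicate 3, in a fit where 6 of 16502 genes (0.0364%) passed an adjusted p under 0.05.

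**Figure D4:**
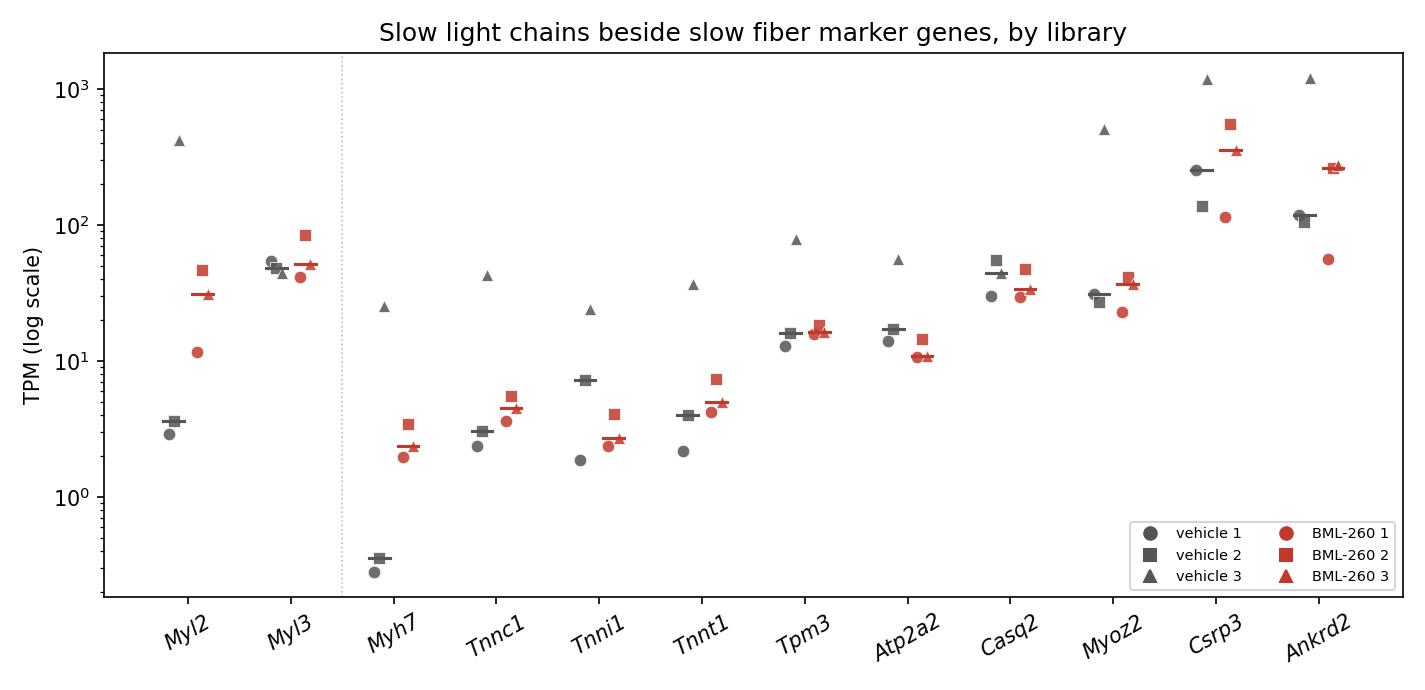
TPM of Myl2, Myl3 and slow fiber marker genes per library on a log10 axis, for 3 vehicle and 3 BML-260 libraries with a bar at each group median. Myl2 and Myh7 are highest in vehicle replicate 3 and lowest in vehicle replicates 1 and 2, whereas Myl3 stays between 41.7 and 84.9 TPM.

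Markers of fiber types and of other cells moved with some of these values. All 10 slow fiber markers had a fold change below 0 (median -0.99 on the log2 scale) and 3 of them, Tnni1, Atp2a2 and Myoz2, were called lower, where 4.86% of all genes tested were called in that direction. Their summed level was between 373 and 466 TPM in vehicle replicates 1 and 2, 3207 TPM in vehicle replicate 3 and between 262 and 951 TPM with BML-260. Without vehicle replicate 3, 7 were higher and 3 lower with a median of 0.44. In that fit 3 were called higher (Myh7, Tnnc1 and Tnnt1) and 1 lower (Atp2a2), beside 1.06% and 2.92% of all genes tested. All slow fiber markers but Casq2 were therefore highest in the same library as Myl2, and the part of fiber content in the Myl2 values was not tested. Of 10 fast fiber markers 9 were higher and 0 were called, with or without that library, with sums of 75736 to 86168 TPM in vehicle and 84409 to 94034 TPM with BML-260.

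Summed cardiac markers were between 1.36 and 8.35 TPM in vehicle and between 1.12 and 2.15 TPM with BML-260, with 1 of the 3 tested (Tnnt2) called lower and Myl7 at 0 counts. For Tnnt2 the log2 fold change went from -1.34 to -0.89 without vehicle replicate 3, and 0 cardiac markers were called. Smooth muscle and pericyte markers, which bear on Mylk and Myl6, summed to 328 to 383 TPM in vehicle and 311 to 393 TPM with BML-260, with 0 of 9 called in either fit. Embryonic and regenerating fiber markers, which bear on Myl4, had 3 of 5 tested called lower (Myh3, Myog and Ncam1). The sums of the 4 with TPM values overlapped at 115 to 194 TPM and 117 to 175 TPM. Most of each sum was Myh8, which was not called, at 101 to 156 TPM in vehicle and 109 to 164 TPM with BML-260. Myog was at 7.89, 10.5 and 43.8 TPM in vehicle and at 2.94, 3.89 and 6.64 TPM with BML-260. Ncam1 was at 1.80, 6.10 and 4.74 TPM and at 1.20, 1.49 and 2.13 TPM. After vehicle replicate 3 was left out, 6 of these embryonic and regenerating fiber markers could be tested and 4 were called lower, Mymk being the addition. Macrophage markers had 4 of 5 called lower (Adgre1, Csf1r, Lyz2 and Itgam), also without vehicle replicate 3, beside 4.86% of all genes called lower with that library and 2.92% without it, with sums of 94.0 to 400.0 TPM in vehicle and 60.1 to 77.9 TPM with BML-260. Fibroblast markers had 1 of 5 called lower, which was Col1a1 over all libraries and Col3a1 without vehicle replicate 3, and summed to 287 to 779 TPM and 315 to 530 TPM, and endothelial markers had 0 of 4 called in either fit at 49.1 to 67.7 TPM and 45.7 to 58.0 TPM. The part of these cells in the values of Myl4, Myl6 and Mylk was not tested.

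The likeness of pattern over the 6 libraries was measured by Pearson's r of log2 CPM against 11340 other genes with a mean of at least 100 normalized counts. The nearest genes to Mylk4 were Gbf1 (r = 0.999), Gm30794 and Pde4a (both 0.998), those to Myl1 were Irx3 (0.999), Sppl2b and Ndufa8 (both 0.998), and those to Myl2 included R3hcc1l (0.985) and Gatm (0.984). Among the 10 genes themselves, r was 0.992 for Myl1 with Mylpf and 0.957 for Myl1 with Mylk4, but -0.38 for Myl2 with Myl3. All these values describe the same 6 libraries, in which vehicle replicate 3 lies apart.

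The promoters of Mylk4 and Myl1, the genes of the set whose level in vehicle replicate 3 was lowest relative to the other vehicle libraries, are shown as given by RefSeq (build GRCm38.p6, 300 bases around the start site, in the direction of transcription). Capitals mark the E-box CANNTG, bound by the MyoD family, and the M-CAT element CATTCC, bound by TEAD factors, searched on both strands.
Mylk4: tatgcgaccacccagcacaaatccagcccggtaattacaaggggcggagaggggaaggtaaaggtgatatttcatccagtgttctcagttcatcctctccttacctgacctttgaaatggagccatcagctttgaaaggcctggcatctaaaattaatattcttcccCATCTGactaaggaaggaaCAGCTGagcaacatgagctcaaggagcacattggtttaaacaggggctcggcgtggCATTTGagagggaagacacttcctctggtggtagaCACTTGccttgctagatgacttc
Myl1: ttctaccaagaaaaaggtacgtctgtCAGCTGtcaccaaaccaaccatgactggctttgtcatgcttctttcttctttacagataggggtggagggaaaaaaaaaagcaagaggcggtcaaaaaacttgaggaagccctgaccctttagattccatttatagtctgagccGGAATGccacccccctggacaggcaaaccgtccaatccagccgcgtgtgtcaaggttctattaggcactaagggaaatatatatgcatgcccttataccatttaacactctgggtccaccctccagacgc
The Mylk4 window (chr13:32783915-32784214, minus strand) held 4 E-boxes and 0 M-CAT elements, and the Myl1 window (chr1:66945007-66945306, minus strand) held 1 of each. An E-box was present in 72.3% and an M-CAT element in 14.7% of 32851 RefSeq promoter windows of this length. The presence of either therefore does not set a window apart, and the share of windows with 4 E-boxes was not computed. For Myl1, which has separate start sites, this window surrounds only 1 of them, and the per-gene values cannot be assigned to a start site. A match describes the letters only.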

How the data were processed

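RNA was sequenced from the TA muscle of 3 vehicle and 3 BML-260 mice (ribosomal depletion, stranded total RNA kit). According to the submitters' processing notes, the authors used HISAT2 2.1.0, StringTie 2.1.3b, Trimmomatic 0.38 and Bowtie2 2.3.4.1 with build mm10. The counting tool, the annotation and the use of strand are not given in the sources used here. The authors deposited raw read counts per gene (45777 genes) and TPM values per gene (16800 genes), which sum over the transcripts of a gene.

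Counts were tested with edgeR 4.0.16 (TMM scaling, filterByExpr, quasi-likelihood F-test, Benjamini-Hochberg adjustment) in R 4.3.3 over 16188 genes, which hold 99.9% of counts. DESeq2 1.42.0 and limma 3.58.1 served as alternatives, with no filter, a minimum of 10 counts, TPM pseudocounts of 1 and 0.1, a replicate block and each library left out in turn. Shares of TPM were compared by exact permutation tests in SciPy 1.17.1. The procedure was tested on simulated data. All 10 listed genes are named, and of the partner lists the 3 genes with the smallest p, besides Myh7 and the called markers, which were named after their values were seen. Some genes that this rule or the likeness of pattern would name are not reported here. The genes and lists were chosen with earlier results of these data known. Sequences were read from GENCODE and RefSeq. Because the p-values rest on 3 mice a group, they measure the spread between these mice only.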

Additional observations from a re-analysis of the deposited data

How the results depend on the processing

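Of 150 alternative log2 fold changes of the 10 genes, 141 kept their direction and their side of the wider rule, 7 turned in direction, of which Myl2 without vehicle replicate 3 also passed the rule, and 2 passed it in the same direction. Myl2 turned from -1.82 to 2.03 with limma voom and sample weights, to 0.45 and 0.62 on log2 TPM with pseudocounts of 1 and 0.1, and ranged from -2.38 to 3.11 when libraries were left out in turn. Vehicle replicate 3 received a sample weight of 0.219, against 0.911 to 1.82 for the others. When libraries were left out, Myl1 ranged from -0.10 to 0.60 and Mylpf from -0.043 to 0.40, and the number of the 10 genes called ranged from 0 to 2 (Myl4 without vehicle replicate 1, Myl2 and Mylk2 without vehicle replicate 3). At an adjusted p under 0.05 the 10 genes had 0 calls under all 15 alternatives.

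Over all genes the wider rule called 931 genes, 1416 with no filter, 503 on log2 TPM with a pseudocount of 1, and 503 to 2223 when libraries were left out. An adjusted p under 0.05 was reached by 0 genes in the main test, 1 with no filter, 1 with at least 10 counts, 95 with DESeq2, 1 with voom weights and 0 to 9 when libraries were left out (9 without vehicle replicate 1, 6 without vehicle replicate 3). The difference in slow essential chain share (-0.035 points) was 0.0141 for summed TPM, 0.0186 for medians and -0.161 to 0.1003 with libraries left out. That in Myl2 share (-0.929) was 0.146 for medians and -1.47 to 0.156. That in the essential to regulatory ratio (0.0821) was -0.00367 for medians and -0.0332 to 0.156, and that in Mylk2 share (-12.4) was 2.75 for medians and -22.1 to 5.60. The cause of these moves, beyond the library left out, was not tested.

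With the replicate number as a block, Myl2 was 1.01 (turned in direction), 0 of the 10 genes were called and 1057 genes met the wider rule. For each gene the mean of its group was subtracted from log2 CPM, and libraries were then correlated between the groups. Same-numbered libraries had correlations of 0.162, 0.0541 and 0.110. On that scale each library correlated best with its own number in the other group, and the other pairs were between -0.124 and -0.0206. This comes from the data and not from the design. With the group mean subtracted, the libraries of a group are not independent, and whether the numbers mark pairs was not tested.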
